A study of Mus musculus with 12 samples.

Results

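Collagens and other extracellular matrix genes were followed in mouse mammary tissue of early pregnancy that carried different numbers of intact Stat5a and Stat5b alleles. The 36 genes were named by symbol and sorted by role into 17 genes of the fibrillar and interstitial matrix, 10 of the basement membrane and 9 that crosslink or remodel matrix. Probe sets whose annotated symbol was 1 of these genes measured 34 of the 36, namely 16 fibrillar, 10 basement membrane and 8 remodelling genes, and all 34 passed the filter on low signal. Fbn1, which encodes the microfibril protein fibrillin, and Loxl2, a lysyl oxidase-like enzyme whose probe sets are annotated with more than 1 gene, were not analysed here. Over all genes, 14198 passed the filter.

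The tissue came from 12 mice, 3 per genotype, taken 6 days after a mating plug and measured as log2 signals on Affymetrix arrays, 1 array per mouse. Stat5a-/- mice carried 2 intact Stat5b alleles and 0 of Stat5a. Stat5ab+/null mice were left with 1 intact allele of each gene. Mice labelled Stat5abnull/Stat5b-, called single-Stat5a here, kept 1 Stat5a allele and no intact Stat5b. Mice labelled Stat5abnull/Stat5a-, called single-Stat5b here, kept 1 Stat5b allele and no intact Stat5a. All mice were of a mixed C57BL/6, FVB and 129 background and lacked at least 2 of the 4 Stat5 alleles. No wild-type mice were analysed here. The labels give no age. The 2 genotypes with 2 intact alleles formed 1 array set and the 2 genotypes with 1 intact allele the other, so allele total and array set cannot be told apart. The labels' treatment text, which speaks of PolyIC and a Mx1-Cre transgene, and their mention of sorted cells stand against a design text that gives mammary tissue. The arrays carried signal of many cell types: mean log2 signals per array ran from 10.6 to 12.2 over 9 luminal epithelial markers, from 11.9 to 13.4 over 8 adipocyte markers and from 11.2 to 11.9 over 11 fibroblast markers.

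In the mammary gland the epithelial ducts lie in a fat pad threaded with fibrous stroma. Fibroblasts secrete the fibrillar collagens and the proteoglycans that space the fibrils, while a sheet of type IV collagen, laminins, nidogen and perlecan, the basement membrane, underlies epithelium and wraps vessels, fat cells and muscle fibres. Lysyl oxidases crosslink the fibrils, matrix metalloproteinases cut them and TIMP proteins inhibit the metalloproteinases. STAT5A and STAT5B, encoded by adjacent genes, are activated by the prolactin receptor in mammary epithelium and switch on milk protein genes. In whole tissue, fewer cells of a type and less RNA per cell cannot be told apart.

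Promoters are shown for 3 genes: Hspg2, the matrix gene with the largest difference between the 2-allele genotypes, Col4a1, the basement membrane gene with the smallest p-value between the 1-allele genotypes, and Col4a6, a collagen IV gene outside the 34 that changed between them. Each stretch lies upstream of the annotated gene and is written 5' to 3' on the gene's strand, from RefSeq's GRCm38.p6 build. The positions are chr4:137468553-137468750 on the plus strand for Hspg2, chr8:11312890-11313076 on the minus strand for Col4a1 and chrX:141474096-141474326 on the minus strand for Col4a6. Capitals mark matches, on either strand, to the STAT5 palindrome (TTCNNNGAA), the TATA box (TATAAA), the CCAAT box (CCAAT) or the GC box (GGGCGG). Each motif was counted by itself, so matches of different motifs may overlap.
Hspg2: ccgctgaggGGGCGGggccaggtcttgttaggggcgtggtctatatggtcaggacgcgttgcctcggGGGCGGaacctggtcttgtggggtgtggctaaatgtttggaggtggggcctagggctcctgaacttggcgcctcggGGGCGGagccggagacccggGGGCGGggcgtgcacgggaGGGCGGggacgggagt
Col4a1: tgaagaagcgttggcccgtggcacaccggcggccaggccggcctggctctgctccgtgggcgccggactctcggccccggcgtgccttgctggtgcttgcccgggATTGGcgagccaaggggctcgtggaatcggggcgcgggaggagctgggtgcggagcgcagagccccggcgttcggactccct
Col4a6: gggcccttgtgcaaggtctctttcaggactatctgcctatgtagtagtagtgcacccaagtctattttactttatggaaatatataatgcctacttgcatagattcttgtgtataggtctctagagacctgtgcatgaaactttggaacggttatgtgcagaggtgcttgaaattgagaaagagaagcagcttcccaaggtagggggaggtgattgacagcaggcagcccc
The Hspg2 stretch held 5 GC boxes, the Col4a1 stretch 1 CCAAT box on the opposite strand and the printed Col4a6 stretch no match. The full 250 bases upstream of the start listed for Col4a6 reached further and held 1 GC box. Of the 36 genes, 23 had a promoter in the table, in 26 windows. The STAT5 palindrome stood in 0 of these 26 windows, against 7.02% of 32851 windows of all genes. TATA boxes were found in 3 windows, those of Col3a1, Mmp3 and Postn (11.5%, against 12.4%). CCAAT boxes were found in 9 (34.6%, against 33.8%) and GC boxes in 15 (57.7%, against 32.7%). These shares describe letters in a 250-base window.

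**Figure D1:**
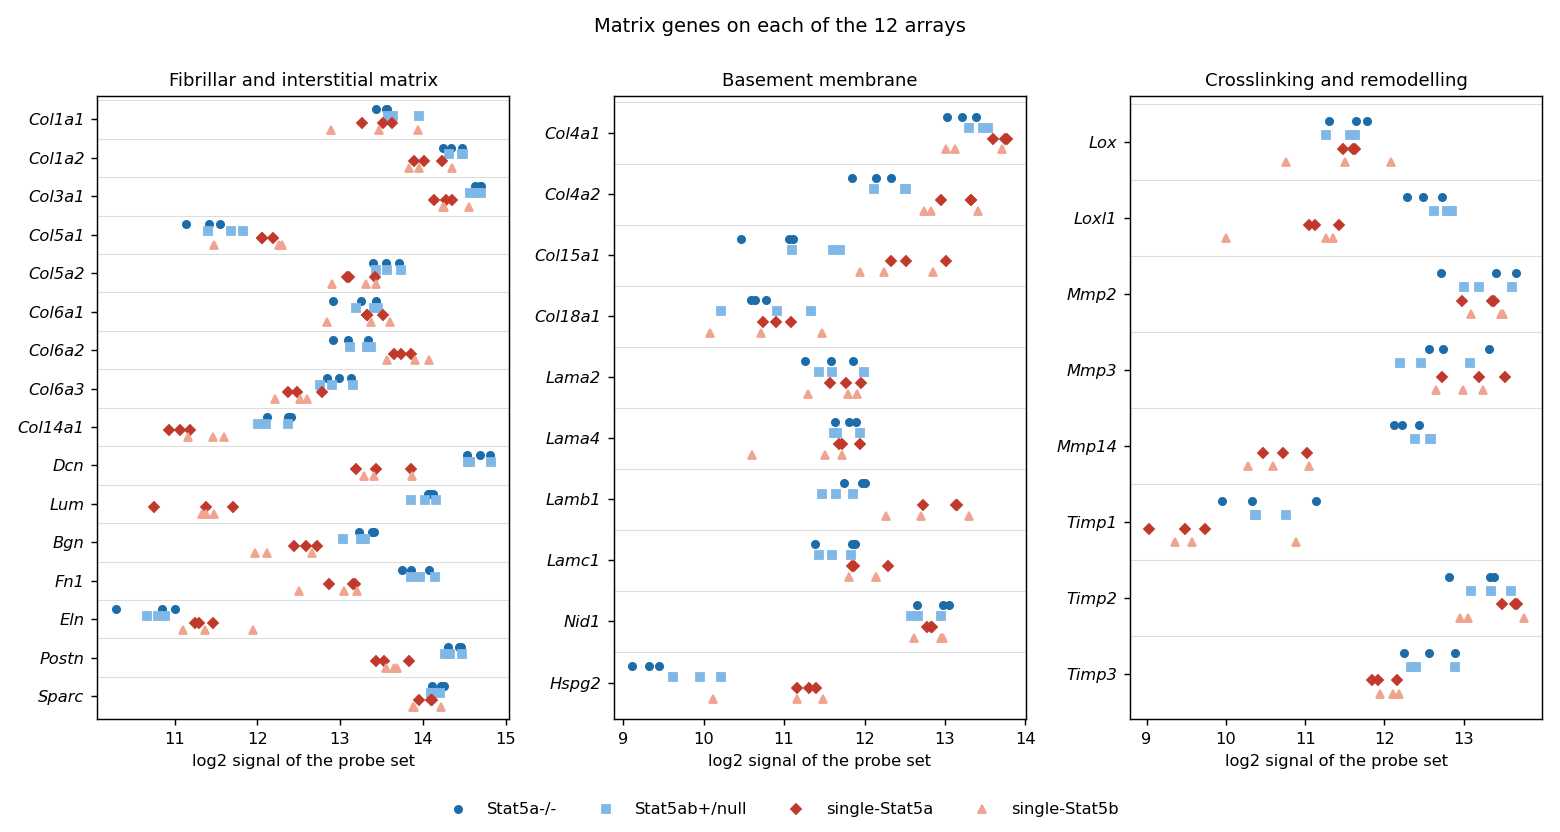
Log2 signal (horizontal axis) of the highest-mean probe set of each of the 34 matrix genes on each of the 12 arrays, with genes in rows by role and a colour and symbol per genotype. Within each pair of genotypes most points intermingle, while Lum, Mmp14 and Loxl1 sit lower, and Hspg2 and Col15a1 higher, on most or all of the 1-allele arrays (red shades) than on the 2-allele arrays (blue shades).

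The first comparison set mice without Stat5a against mice with 1 allele of each gene, at the same total of 2 alleles. No matrix gene passed the test: 0 of 34 differed at an adjusted p under 0.05 (limma, Benjamini-Hochberg over 14198 genes), where 0.00704% of all genes, a single gene, did. At an unadjusted p under 0.05 there was 1 matrix gene of 34, against 3.01% of all genes. The median difference of the 34 genes, Stat5a-/- minus Stat5ab+/null, was -0.03 on the log2 scale with 19 of 34 below 0 (0.0009 with quantile normalization and 0.0194 with each array centred on its median), and over all genes it was -0.08 with 66.4% below 0. The 95% interval lay within a 2-fold change either way for 32 of 34 genes and within 1.5-fold for 18, so changes of 2-fold or more fell outside the intervals of all but Hspg2 and Col15a1.

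Fibrillar genes were split evenly, 8 below and 8 above 0, with a median of 0.01 and a range from -0.27 to 0.15. Col5a1, a chain of the type V collagen that starts and limits fibrils, read log2 11.54, 11.41 and 11.14 in Stat5a-/- and 11.68, 11.40 and 11.83 in Stat5ab+/null tissue, a difference of -0.27 (SE 0.22). Its lowest array was Stat5a-/- and its highest Stat5ab+/null, with overlap between them. Col1a1, the alpha-1 chain of type I collagen, read 13.55, 13.56 and 13.44 against 13.64, 13.58 and 13.95, a difference of -0.21 (SE 0.24). Every Stat5a-/- array lay below every Stat5ab+/null array for Col1a1, though the nearest values were 13.56 and 13.58. Groups without overlap were found for 2 of the 34 genes, Col1a1 and Hspg2, and for 19.1% of all genes. Col6a1, a chain of the beaded-filament collagen VI, read 13.43, 13.25 and 12.91 against 13.46, 13.19 and 13.41 and differed by -0.16 (SE 0.21). The fibril collagens Col1a2 and Col3a1 differed by -0.07 (SE 0.18) and 0.04 (SE 0.15), and the small proteoglycans Dcn, Lum and Bgn by 0.04, 0.08 and 0.15.

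The basement membrane genes held the largest differences of this comparison, with a median of -0.13 and 6 of 10 below 0. Hspg2, which encodes perlecan, a heparan sulfate proteoglycan of basement membranes, read 9.44, 9.33 and 9.11 in Stat5a-/- and 9.96, 9.62 and 10.22 in Stat5ab+/null tissue. The groups did not overlap, and the difference of -0.64 (SE 0.29, 95% interval -1.27 to -0.0044), 1.56-fold, had an unadjusted limma p of 0.0487 and an adjusted p of 0.9998. A further Hspg2 probe set pointed the other way, at 0.26. Col15a1, the chain of a collagen found around vessels and muscle, read 11.06, 11.11 and 10.47 against 11.61, 11.10 and 11.69, with 1 Stat5ab+/null array among the Stat5a-/- values and a difference of -0.59 (SE 0.28, adjusted p 0.9998). Col4a2, which pairs with Col4a1 in the collagen IV network, read 12.33, 12.14 and 11.84 against 12.51, 12.12 and 12.50 and differed by -0.28 (SE 0.22). Col4a1, transcribed from the neighbouring gene on chromosome 8, differed by -0.24 (SE 0.20). The laminin chains Lama2, Lama4, Lamb1 and Lamc1 lay between -0.11 and 0.25.

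Among remodelling genes 5 of 8 were below 0 and the median was -0.02, or 0.02 and 0.03 with those 2 scalings. Mmp3, a stromal metalloproteinase also called stromelysin 1, read 13.32, 12.74 and 12.56 in Stat5a-/- and 13.08, 12.47 and 12.20 in Stat5ab+/null tissue, overlapping groups that differed by 0.29 (SE 0.29). Mmp14, a membrane-bound metalloproteinase, read 12.44, 12.22 and 12.12 against 12.57, 12.39 and 12.59, with 1 Stat5a-/- array above the lowest Stat5ab+/null array and a difference of -0.26 (SE 0.21). Loxl1, a crosslinking enzyme linked to elastic fibres, read 12.73, 12.49 and 12.28 against 12.86, 12.62 and 12.78 and differed by -0.25 (SE 0.30). The metalloproteinase inhibitors Timp1, Timp2 and Timp3 differed by -0.03, -0.17 and 0.03. With a gene's further probe sets included, the range between probe sets of 1 gene had a median of 0.14 over the 25 genes with several, and it reached 0.90 for Hspg2.

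The low values of this comparison often came from the same mouse. The third Stat5a-/- array was the lowest of its genotype for 32 of 34 matrix genes, against 40.0% of all genes, and the second Stat5ab+/null array was the lowest of its own for 23 of 34, against 37.5%. Those arrays also carried the highest B cell signal of their genotype: over 8 B cell markers past the filter, of 10 listed, mean log2 signals were 6.87, 6.87 and 11.5 in Stat5a-/- and 7.79, 12.0 and 9.55 in Stat5ab+/null tissue. Muscle marker means were 6.38, 6.29 and 9.81 in Stat5a-/- and 6.49, 8.75 and 6.18 in Stat5ab+/null tissue, highest on those arrays too. Fibroblast marker means on the same arrays were 11.5, 11.4 and 11.2 in Stat5a-/- and 11.6, 11.4 and 11.3 in Stat5ab+/null tissue, lowest on the third array of either genotype. What part these differences in tissue have in the values of single mice was not tested. Without the third Stat5a-/- array 0 of 34 matrix genes passed the test, against 0.0141% of all genes, and with muscle and B cell list means as covariates 0 of 34, against 0.0211%.

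**Figure D2:**
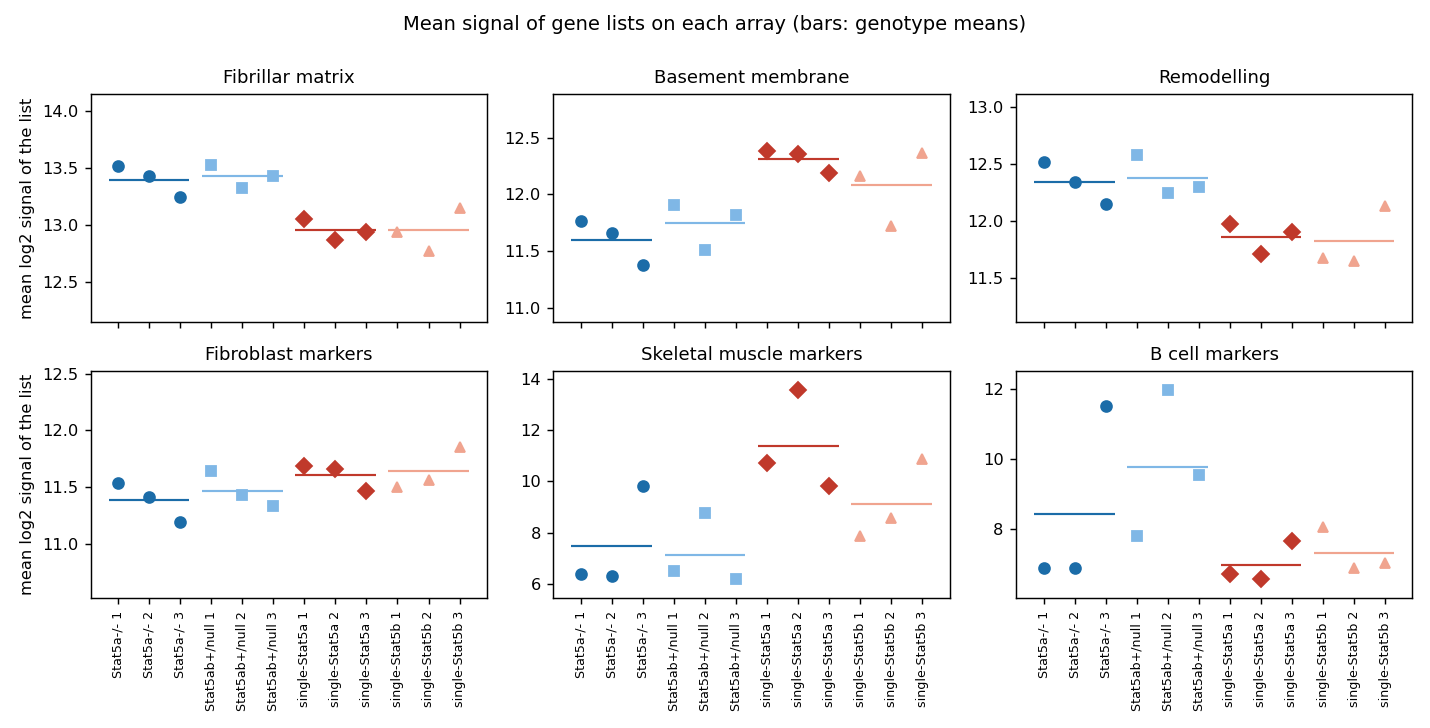
Mean log2 signal (vertical axis) of the fibrillar, basement membrane and remodelling genes and of fibroblast, skeletal muscle and B cell markers on each of the 12 arrays, with horizontal bars for genotype means. The third Stat5a-/- and second Stat5ab+/null arrays are high in B cell markers at 11.5 and 12.0, the second single-Stat5a array is high in muscle markers at 13.6, and fibroblast markers stay between 11.2 and 11.9.

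The second comparison set the genotypes that kept a single Stat5 allele against each other, single-Stat5b minus single-Stat5a. Again 0 of 34 matrix genes passed the test, where 2.18% of all genes did (310 genes, 0.817% higher and 1.37% lower). There was 1 matrix gene at an unadjusted p under 0.05, against 11.6% of all genes, and 0 of 34 had groups without overlap, against 10.9%. The median of the 34 genes was -0.09 with 20 below 0, and that of all genes was -0.03 with 54.1% below 0. All 34 measured differences were under 1.5-fold, and the 95% interval lay within 2-fold for 31 genes, all but Hspg2, Lama4 and Timp1. These intervals use a spread shared by all 12 arrays, while single-Stat5b tissue varied more than the other genotypes. They may therefore be too narrow here.

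In the fibrillar group 7 of 16 genes were below 0 and the median was 0.01. Col14a1, a fibril-associated collagen, read 11.18, 11.06 and 10.93 in single-Stat5a and 11.16, 11.60 and 11.46 in single-Stat5b tissue, where 1 single-Stat5b array fell among the single-Stat5a values. Its difference was 0.35 (SE 0.18, adjusted limma p 0.497). Bgn, the proteoglycan biglycan, read 12.45, 12.72 and 12.59 against 12.12, 11.97 and 12.65 and differed by -0.34 (SE 0.19, adjusted p 0.577). Fn1, the adhesive glycoprotein fibronectin, read 13.15, 12.87 and 13.17 against 13.20, 12.50 and 13.05, a difference of -0.15 (SE 0.20) that was 0.06 without the second single-Stat5b array. A further Fn1 probe set pointed the other way, at 0.66 (unadjusted p 0.0361, adjusted p 0.385 by probe set). The major fibril genes Col1a1, Col1a2 and Col3a1 differed by -0.04, 0.00 and 0.09, with standard errors of 0.24, 0.18 and 0.15.

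Of the basement membrane genes 8 of 10 were below 0, with a median of -0.23, and none of the 10 passed the test. Markers of some other cell types that carry basement membranes lay lower too, with 0 called. Below 0 were 9 of 10 endothelial markers (median -0.53), 7 of 8 adipocyte markers (median -0.47) and 11 of 11 muscle markers (median -2.30). An unadjusted limma p under 0.05 was found for 5, 2 and 3 of them, against 11.6% of all genes. Luminal epithelial markers went the other way, with 9 of 9 above 0 (median 0.36). Pericyte and smooth muscle markers (6 of 10 below 0) and basal epithelial markers (6 of 8 below 0) both had a median of -0.06. Medians were -0.20 for macrophage markers (6 of 9 below 0), -0.14 for Schwann cell markers (3 of 4) and -0.04 for fibroblast markers (6 of 11). B cell and T cell markers had medians of 0.19 (6 of 8 above 0) and 0.26 (4 of 7 above 0). Endothelial marker means were log2 9.81, 10.1 and 9.81 in single-Stat5a and 9.44, 9.26 and 9.69 in single-Stat5b tissue, and adipocyte marker means 12.6, 12.7 and 12.6 against 12.3, 11.9 and 12.5, neither with overlap. Their part in the basement membrane values was not tested. Lama4, a laminin alpha chain of vessel walls, read 11.69, 11.72 and 11.94 in single-Stat5a and 11.50, 10.60 and 11.72 in single-Stat5b tissue. The difference was -0.51 (SE 0.25, adjusted p 0.479), and it was -0.17 without the second single-Stat5b array. Col4a1, whose promoter is shown above, read 13.75, 13.77 and 13.60 against 13.12, 13.01 and 13.70. The first and second single-Stat5b arrays lay below every single-Stat5a array and the third among them. The difference was -0.43 (SE 0.20), 1.34-fold, with an unadjusted limma p of 0.0491 and an adjusted p of 0.428. A further Col4a1 probe set read 12.53, 12.68 and 12.04 against 12.11, 11.74 and 12.76. Its groups overlapped, and its difference of -0.22 did not pass the test. Col4a1 did pass the test in 2 alternatives, both of which called more of all genes than the 310 of the main fit. With array weights Col4a1 was -0.56 (adjusted p 0.0228), and 2228 of all 14198 genes passed. The weights of the single-Stat5b arrays were 2.46, 0.125 and 0.204. Without the third single-Stat5b array Col4a1 was -0.64 (adjusted p 0.0414), and 896 of all genes passed. Over 26 alternatives its adjusted p ran from 0.0228 to 0.9996. Hspg2 read 11.30, 11.39 and 11.16 against 11.48, 10.11 and 11.16, and its difference of -0.37 (SE 0.29) turned to 0.03 without the second single-Stat5b array, while its further probe set gave -0.93 (unadjusted p 0.0132, adjusted p 0.229 by probe set). Col4a2 and Col15a1 differed by -0.21 and -0.27, with adjusted p of 0.83 and 0.824, and Lamc1 and Nid1 by 0.03 each.

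Of the remodelling genes 5 of 8 were below 0, with a median of -0.11. Timp1, an inhibitor of metalloproteinases, read 9.73, 9.49 and 9.03 in single-Stat5a and 9.57, 9.36 and 10.89 in single-Stat5b tissue. Its difference of 0.52 (SE 0.38, adjusted p 0.717) was 0.05 without the third single-Stat5b array. Timp2, another inhibitor, read 13.65, 13.49 and 13.68 against 13.06, 12.95 and 13.76, a difference of -0.35 (SE 0.24). Over its 5 probe sets past the filter the difference ran from -0.35 to 0.57, and none passed the test. The 0.57 came from a probe set with means of 4.87 in single-Stat5a and 5.44 in single-Stat5b tissue, below log2 6.04. Loxl1 read 11.43, 11.05 and 11.13 against 11.35, 10.00 and 11.26, and its difference of -0.33 (SE 0.30) was 0.10 without the second single-Stat5b array. Lox, the lysyl oxidase itself, differed by -0.13 (SE 0.27, adjusted p 0.936). It passed the test in 1 alternative, with array weights (-0.66, adjusted p 0.0418), where 2228 of all 14198 genes passed.

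Spread was wider in single-Stat5b tissue than in the other genotypes. The median SD over the 34 genes was 0.36 there and 0.17, 0.19 and 0.17 in Stat5a-/-, Stat5ab+/null and single-Stat5a tissue, beside medians over all genes of 0.39, 0.15, 0.16 and 0.20. The second single-Stat5b array was lowest of its genotype for 23 of 34 matrix genes, against 51.4% of all genes, and the third was highest for 20 of 34, against 44.3%. Muscle marker means over 11 of 12 listed genes were 10.7, 13.6 and 9.81 in single-Stat5a and 7.87, 8.55 and 10.9 in single-Stat5b tissue, the high value of the latter being the third array. With muscle and B cell list means as covariates, 0 of 34 matrix genes passed in this comparison, against 1.39% of all genes.

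**Figure D3:**
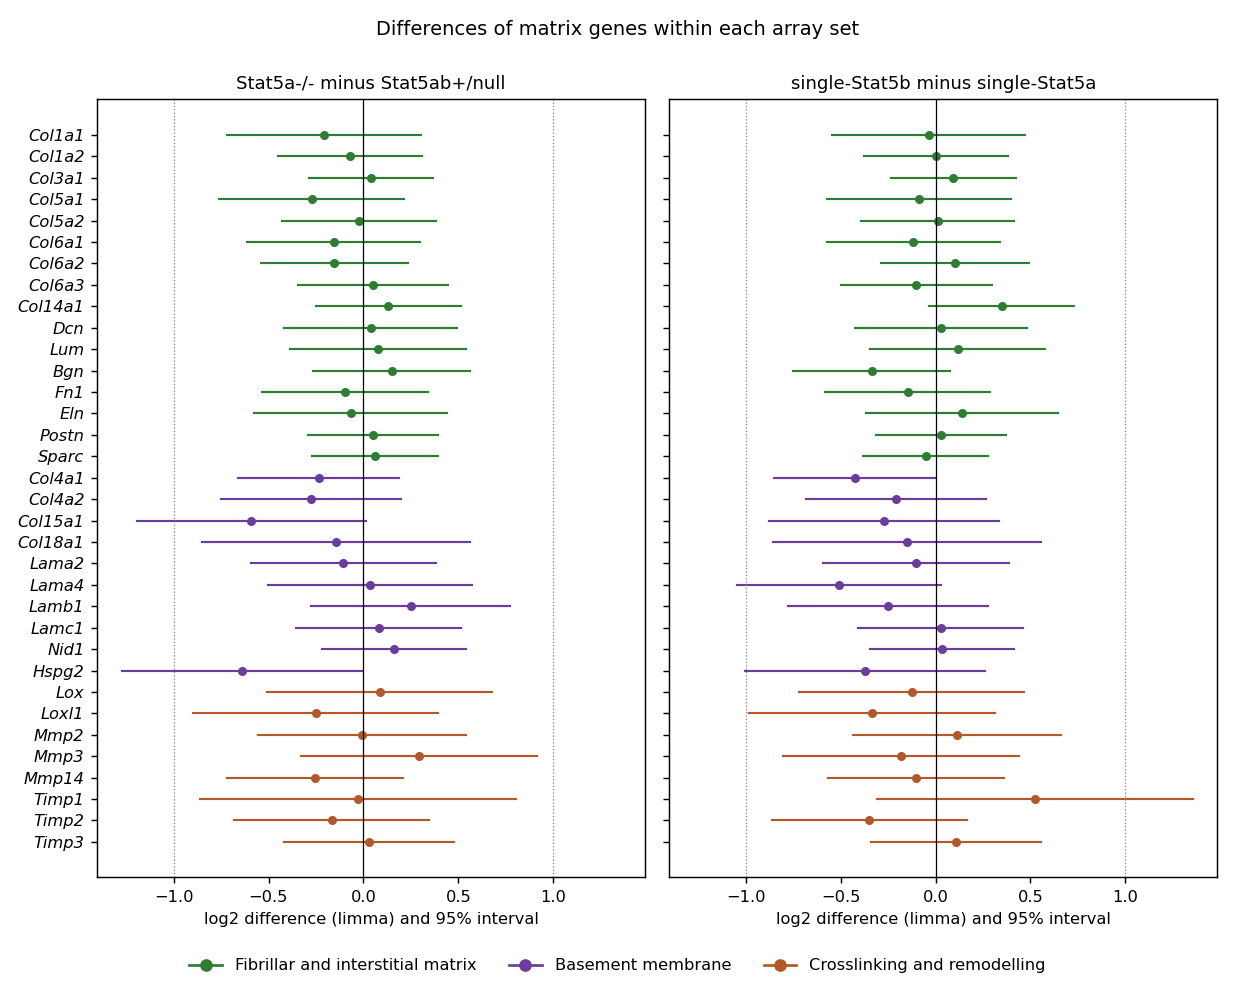
Limma log2 difference (points) with its 95% interval (lines) for each of the 34 matrix genes, Stat5a-/- minus Stat5ab+/null on the left and single-Stat5b minus single-Stat5a on the right, coloured by role, with dotted lines at a 2-fold change. The intervals of Hspg2 on the left and Col4a1 on the right end just below 0, and none passed the test after adjustment.

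Probe sets were also fitted one by one. Of the matrix genes' 73 probe sets past the filter, 1 passed the test between the 1-allele genotypes, against 2.41% of all 26187 probe sets, a probe set of Lamb1, the laminin beta-1 chain. It read 5.59, 5.34 and 6.92 in single-Stat5a and 8.12, 8.43 and 8.05 in single-Stat5b tissue, a rise of 2.25 (SE 0.36, adjusted p 0.00287). The other Lamb1 probe sets past the filter differed by -0.25, -0.48 and -0.26 and did not pass, so the rise is a reading of that probe set and not of the gene as a whole. Over the 25 genes with several probe sets, the range between them had a median of 0.26 in this comparison.

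The difference between the 1-allele genotypes was then set against that between the 2-allele genotypes, since both run from more Stat5a to more Stat5b. This interaction was found for 0 of 34 matrix genes, against 0.775% of all genes, and 0 of 34 had an unadjusted p under 0.05, against 7.23%. The largest estimates were those of Timp1 at 0.55 (SE 0.54), Lama4 at -0.54 (SE 0.35), Lamb1 at -0.50 (SE 0.34), Bgn at -0.49 (SE 0.27) and Mmp3 at -0.47 (SE 0.41). The lowest limma adjusted p among the 34 genes was 0.84. The median interval of the 34 genes reached 0.65 to either side, wider than the 0.46 of either difference alone.

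Other genes of the matrix, in 5 lists, were tested in the same fits. Between the 2-allele genotypes 0 of 34 further fibrillar and associated genes, 0 of 15 basement membrane genes, 0 of 17 genes of collagen processing, 0 of 18 of remodelling and 0 of 22 of matrix receptors and TGF-beta signalling passed the test. Over all genes 0.00704% passed there. Between the 1-allele genotypes 2.18% of all genes passed. In the further lists 1 of 15 basement membrane genes fell, Col4a6, and 1 of 18 remodelling genes rose, Adamts4. None passed in the further fibrillar, processing or receptor lists.

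Col4a6 encodes an alpha chain of collagen IV that is restricted to some basement membranes, and its promoter is shown above. It read 9.76, 9.29 and 10.02 in single-Stat5a and 6.31, 6.17 and 5.88 in single-Stat5b tissue, without overlap and with all single-Stat5b values close to the filter at 6.04. The Col4a6 difference, single-Stat5b minus single-Stat5a, was -3.57 (SE 0.36), with a limma adjusted p of 8.69e-05. No fold is given, since no detection call was available and the single-Stat5b signals may be background. A further Col4a6 probe set, fitted by itself, read 8.19, 7.22 and 7.99 against 4.37, 5.10 and 4.94 and gave -2.99 (adjusted p 6.84e-04). In the 2-allele set Col4a6 read 7.80, 8.46 and 6.73 in Stat5a-/- and 9.14, 8.38 and 8.80 in Stat5ab+/null tissue, overlapping groups that differed by -1.11 (SE 0.36, unadjusted p 0.00933, adjusted p 0.9998). Its interaction was -2.46 (SE 0.51, adjusted p 0.0496), and it passed the test in 8 of 25 alternatives, with adjusted p from 0.00331 to 0.218. The order of the 4 genotype means for this probe set was single-Stat5a 9.69, Stat5ab+/null 8.77, Stat5a-/- 7.66 and single-Stat5b 6.12, in which the middle neighbours overlapped. The further probe set gave another order, Stat5ab+/null 9.08, Stat5a-/- 8.03, single-Stat5a 7.80 and single-Stat5b 4.80, with single-Stat5b lowest in both. These orders mix array sets, between which the probe sets differed by -0.31 and -2.25. Col4a5, the neighbouring collagen IV gene, read 10.26, 9.80 and 10.28 in single-Stat5a and 10.56, 11.24 and 9.74 in single-Stat5b tissue and differed by 0.40 (adjusted p 0.801 by probe set).

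Adamts4, a protease that cuts aggrecan and versican, read 10.38, 10.53 and 10.40 in single-Stat5a and 11.51, 12.08 and 11.61 in single-Stat5b tissue, without overlap. It rose by 1.30 (SE 0.20), 2.46-fold, with a limma adjusted p of 0.00268. Its further probe set gave -0.30 (adjusted p 0.836), and the mean of both probe sets gave 0.50 (adjusted p 0.424), so the rise holds for 1 of its 2 probe sets. Between the 2-allele genotypes the same probe set differed by -0.05, and its interaction of 1.34 (SE 0.28) had an adjusted p of 0.0519.

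**Figure D4:**
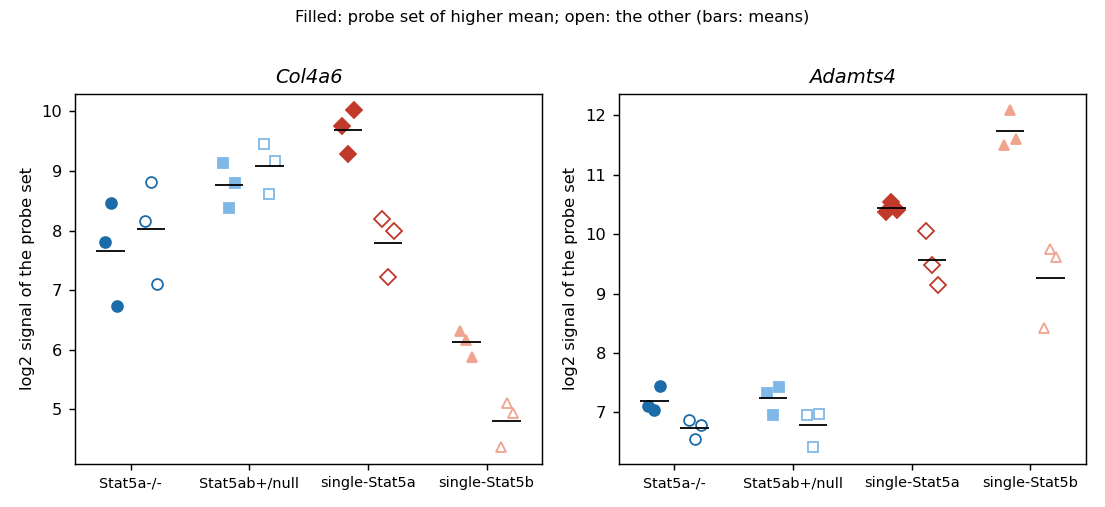
Log2 signal (vertical axis) of both probe sets of Col4a6 (left) and Adamts4 (right) on the 3 arrays of each genotype, with the probe set of higher mean filled, the other open, and bars for genotype means. Both Col4a6 probe sets are lower in single-Stat5b than in single-Stat5a tissue, while only the filled Adamts4 probe set is higher there.

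Between the array sets, 1-allele minus 2-allele, matrix genes differed widely, as did all genes, and here the number of alleles cannot be told apart from the arrays. Of the 34 genes 22 passed the test, 8 higher and 14 lower, where 70.7% of all genes did (37.6% higher and 33.2% lower). Groups did not overlap for 15 of 34, against 50.7%. Correlations between arrays across all probe sets ran from 0.949 to 0.994 within an array set and from 0.818 to 0.883 across them. The 3' minus 5' control gap, the mean of actin and Gapdh, was 0.02 to 0.14 on the 2-allele arrays and 1.64 to 3.85 on the 1-allele arrays. For Gapdh alone it was -0.10 to 0.05 and 1.11 to 3.91. Of 11 muscle markers 10 were called higher on the 1-allele arrays and 0 lower, with a median of 3.06. With that control gap of each array as a covariate, 7 of 34 genes passed, against 41.3% of all genes. By their highest-mean probe sets, Lum, Dcn, Fn1, Mmp14 and Loxl1 were lower and Col15a1 and Col4a2 higher. Because the gap did not overlap between the array sets, such a fit cannot tell the gap apart from the array set. With muscle and B cell list means as covariates 12 of 34 passed, against 47% of all genes.

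The roles differed in direction by the probe set of highest mean. In the fibrillar group 10 of 16 genes were lower and 3 higher, with a median of -0.36. Lum, the proteoglycan lumican, had a single probe set, so no other probe set could be set beside it. It read 14.12, 14.10 and 14.07 in Stat5a-/-, 14.16, 13.86 and 14.03 in Stat5ab+/null, 11.38, 10.75 and 11.70 in single-Stat5a and 11.38, 11.33 and 11.48 in single-Stat5b tissue, a gap of -2.72 (SE 0.15, limma adjusted p 7.96e-09), 6.57-fold. Dcn, the proteoglycan decorin and Lum's neighbour on chromosome 10, read between 14.54 and 14.82 on the 2-allele arrays (median 14.63) and between 13.19 and 13.87 on the 1-allele arrays (median 13.42), a gap of -1.15 (SE 0.15), but its further probe set gave 2.21. Eln, which encodes elastin, read 10.29 to 11.00 (median 10.82) against 11.11 to 11.95 (median 11.33) and gave 0.66 (SE 0.17), with -1.64 by its further probe set. Col6a2, which lies next to Col6a1, read 12.92 to 13.37 (median 13.22) against 13.57 to 14.07 (median 13.79), giving 0.60 (SE 0.13), with -0.50 by its further probe set. Col6a1 itself gave 0.06 (SE 0.15).

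In the basement membrane group 5 of 10 genes were higher and 0 lower, with a median of 0.26. Hspg2 read 9.11 to 10.22 (median 9.53) on the 2-allele arrays and 10.11 to 11.48 (median 11.23) on the 1-allele arrays, a gap of 1.49 (SE 0.21, 2.80-fold), while its further probe set gave -1.99. Col15a1, with a single probe set, read 10.47 to 11.69 (median 11.10) against 11.94 to 13.01 (median 12.42), without overlap, a gap of 1.31 (SE 0.20, 2.48-fold). Col4a2 gave 0.86 (SE 0.15), Lamb1 1.10 (SE 0.17) and Lamc1 0.36 (SE 0.14). With muscle and B cell list means as covariates, Hspg2 (1.46) and Lamb1 (1.04) still passed, while the call was lost for Col15a1 at 0.59 (adjusted p 0.141), Col4a2 at 0.33 (adjusted p 0.321) and Lamc1 at 0.12 (adjusted p 0.733). At the low end, Lama4 read 11.62 to 11.94 (median 11.73) against 10.60 to 11.94 (median 11.70) and gave -0.23 (SE 0.18). Nid1, the basement membrane linker nidogen 1, read 12.58 to 13.05 (median 12.81) against 12.62 to 12.98 (median 12.83) and gave 0.02 (SE 0.12), and its further probe sets gave 3.09 and -0.57.

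Among remodelling genes 4 of 8 were lower and 0 higher, with a median of -0.28. Mmp14 read 12.12 to 12.59 (median 12.41) on the 2-allele arrays and 10.27 to 11.04 (median 10.66) on the 1-allele arrays, a gap of -1.70 (SE 0.15, 3.25-fold), and its further probe sets gave -1.61 and -4.49, the same direction. Loxl1 read 12.28 to 12.86 (median 12.68) against 10.00 to 11.43 (median 11.19), a gap of -1.59 (SE 0.21), and its further probe set gave 1.48. Timp1 gave -0.81 (SE 0.27) and Timp3 -0.53 (SE 0.15). At the high end, Mmp3 read 12.20 to 13.32 (median 12.65) against 12.65 to 13.53 (median 13.09) and gave 0.33 (SE 0.20). Timp2 read 12.82 to 13.60 (median 13.34) against 12.95 to 13.76 (median 13.57) and gave 0.17 (SE 0.17). Neither passed the test, the array sets overlapped for both, and Timp2's further probe sets gave -1.04, -1.62, -1.84 and -6.35.

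Probe sets of the same gene thus parted between the array sets. Of the 25 matrix genes with several probe sets past the filter, 10 (40.0%) had probe sets called both higher and lower, against 39.3% of such genes overall: Col14a1, Col5a1, Col5a2, Col6a2, Dcn, Eln, Hspg2, Lamb1, Loxl1 and Nid1. The range between a gene's probe sets had a median of 1.30, beside 0.14 and 0.26 in the comparisons within an array set, and exceeded 1 for 17 of 25 genes (68.0%). Over all genes with several probe sets the median was 1.71 and 71.3% exceeded 1. For Col1a1 and Mmp2, whose chosen probe sets did not pass the test (-0.17 and 0.03), a further probe set gave 1.13 and -1.30, while those of Sparc (-0.14, -0.90 and -1.37), Fn1 (-0.95 and -1.93) and Bgn (-0.85, -0.33 and -0.18) kept 1 sign. Of all 73 matrix probe sets 53 passed the test, 18 higher and 35 lower, against 73.7% of all probe sets. The directions given for the roles between the array sets are therefore those of the chosen probe sets.

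**Figure D5:**
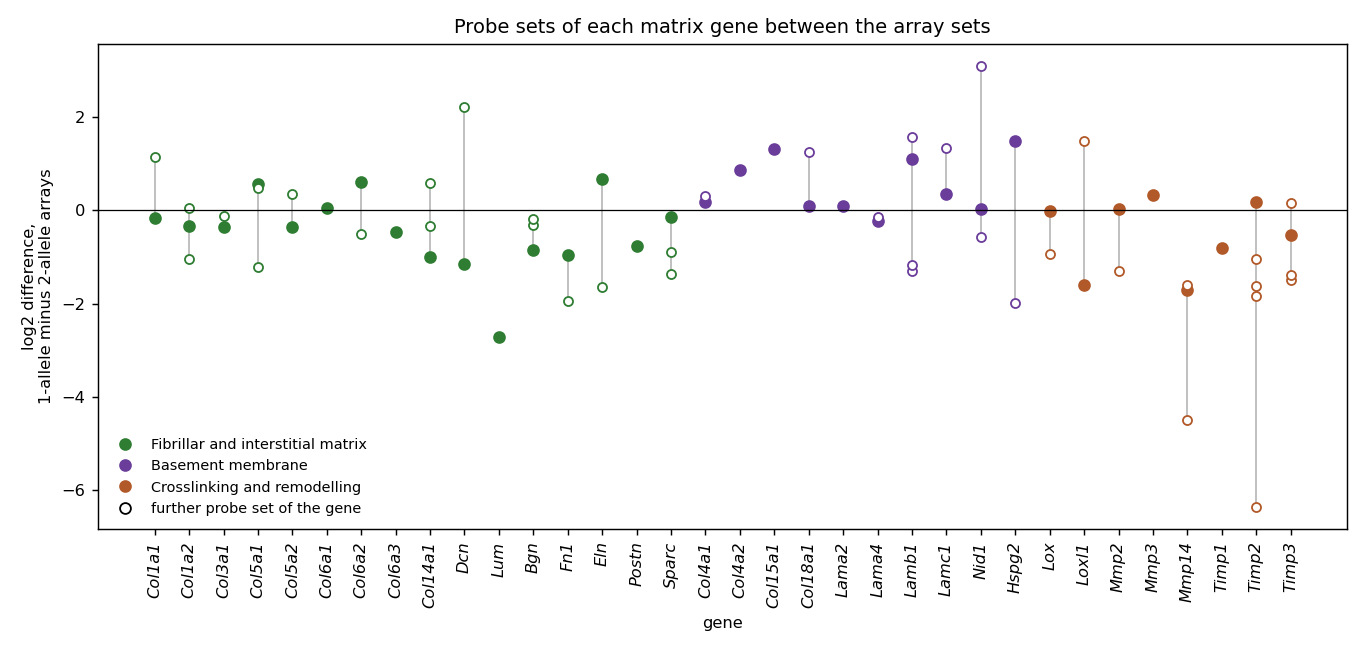
Log2 difference, 1-allele minus 2-allele arrays (vertical axis), of every probe set past the filter for each of the 34 matrix genes, with the highest-mean probe set filled, further ones open, and a line joining the probe sets of a gene. Lines cross 0 for Dcn (-1.15 and 2.21), Hspg2 (1.49 and -1.99) and Loxl1 (-1.59 and 1.48), among others, and the longest line is that of Timp2 (0.17 to -6.35).

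In the further matrix lists the same comparison called genes in both directions, where 37.6% of all genes were called higher and 33.2% lower. Values are those of each gene's highest-mean probe set, and further probe sets are not given in this paragraph. The fibrillar and associated list had 11 of 34 genes higher and 9 lower, led by Fmod, the proteoglycan fibromodulin (3.63), and Fbln2, an elastic fibre protein (-2.63). The basement membrane list had 6 of 15 higher and 3 lower, led by Fras1 (3.22) and Lama5 (-1.20). Collagen processing genes had 2 of 17 higher and 11 lower, from P3h1 (2.27) to Plod2 (-2.21), both enzymes that hydroxylate collagen. Remodelling genes had 8 of 18 higher and 4 lower, from Adamts4 (3.87) to the urokinase gene Plau (-3.53). Receptors and TGF-beta genes had 8 of 22 higher and 9 lower, from the collagen receptor Ddr1 (3.53) to Tgfb1 (-3.53).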

How the data were processed

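Total RNA of 12 mammary samples was extracted with Trizol and hybridized as biotin-labelled cRNA to Affymetrix arrays, per the labels' protocols. The authors deposited log2 signals for 45101 probe sets. RMA and Partek are named in the submitters' processing notes, and Partek settings were not given in the sources used here. Groups came from the genotype labels. Titles mark the Stat5a-/- arrays ABB and the Stat5ab+/null arrays AAB, which would go against the genotype labels if the letters were allele counts, and they were not used. Arrays were numbered in record order.

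Probe sets were named with the platform's annotation: 34958 had 1 gene symbol, 932 several and 9160 besides controls none. Per gene the probe set of highest mean over the 12 arrays was used, if at or above the 30th percentile (log2 6.04). Of the matrix genes, 9 had 1 probe set and 25 several, at most 6. Their 75 probe sets, 73 past the filter, were also fitted by themselves. Limma 3.58.1 in R 4.3.3 fitted 1 mean per genotype and a spread shared by all 12 arrays, with 2-sided tests, Benjamini-Hochberg adjustment over 14198 genes and calls under 0.05. The scripts were tested on simulated data. Exact permutation of 3 against 3 arrays reaches p = 0.1 at best, so none is given. P-values and intervals rest on the spread between these mice, shared over the 12 arrays. Since single-Stat5b tissue varied more than the other genotypes, they do not follow the spread of each genotype by itself. The number of arrays limits precision.

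Members and lists were chosen with earlier results of these data known. Genes named with every array's value were those called within an array set or in the interaction, in each role the 3 largest differences within an array set, and between array sets the 2 highest and 2 lowest, there given by lowest, median and highest value except Lum. Col4a5, the neighbour of Col4a6, was named after its values were seen. In the other lists called genes were named, at most 4 each way. Promoters and gene order came from RefSeq tables. The arrays' own genome build was not used here. Alternatives were no filter or one at the 50th percentile, quantile normalization, median centring, a gene's probe sets averaged, probe sets 1 by 1, other variance models, array weights, only the genotypes compared, a 1.5-fold minimum, each array left out, and covariates for muscle and B cell, fibroblast and 3' minus 5' control signals. A fit without 4 arrays high in muscle or B cell signal was added after seeing the data.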

Additional observations from a re-analysis of the deposited data

Results flagged for a closer look

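Col4a6, a collagen IV gene outside the 34, stood out because its difference between the 1-allele genotypes was not the same as that between the 2-allele genotypes. The interaction was -2.46 on the log2 scale (SE 0.51, limma adjusted p 0.0496): single-Stat5b minus single-Stat5a was -3.57 and Stat5a-/- minus Stat5ab+/null was -1.11, and all 3 single-Stat5b arrays lay below all 3 single-Stat5a arrays. The adjusted p lies just under the threshold and ran from 0.00331 to 0.218 over 25 alternatives, with 8 under it. By the further Col4a6 probe set the interaction was -1.94 (adjusted p 0.22). With each of the 12 arrays left out in turn the sign of the Col4a6 interaction stayed the same, but the call mostly did not. It was kept only without the third Stat5a-/- array. In the other such fits the limma adjusted p ran from 0.0541 to 0.136.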

How the results depend on the processing

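Between the 2-allele genotypes and in the interaction, 0 of 34 matrix genes passed the test in every alternative run, with lowest adjusted p of 0.055 for a gene in the former and, in the latter, 0.0571 for a gene and 0.0524 for a probe set (of Lamb1). Between the 1-allele genotypes there was 1 matrix probe set of 73 when each was fitted by itself (Lamb1), against 631 of all 26187. With array weights, which ran from 0.125 to 6.24 per array, 2 of 34 passed (Col4a1 and Lox), against 2228 of all 14198 genes. When arrays were left out in turn 0 to 1 of 34 passed. The 1 gene was Col4a1, without the third single-Stat5b array, a fit that called 896 of all 14198 genes. Between the array sets the count of 22 became 53 of 73 probe sets by probe set, 12 with muscle and B cell covariates and 7 with the 3' minus 5' covariate, and 20 to 22 with arrays left out. The cause was not tested.

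Over all genes, the 1 gene called between the 2-allele genotypes became 0 with the filter at the 50th percentile, without moderation and without the 4 arrays, 2 with only the genotypes compared, 3 with muscle and B cell covariates, 202 with array weights and 0 to 5 with arrays left out. The 310 between the 1-allele genotypes became 631 by probe set, 2228 with array weights, 157 with only the genotypes compared, 198 with muscle and B cell covariates and 232 to 896 with arrays left out (the highest without the third single-Stat5b array). The 110 of the interaction became 233 by probe set, 68 without moderation, 1580 with array weights, 61 with muscle and B cell covariates, 73 without the 4 arrays and 64 to 199 with arrays left out (without the second Stat5a-/- and the second single-Stat5b array). The 10044 between array sets became 19304 by probe set, 6671 with muscle and B cell covariates and 5863 with the 3' minus 5' covariate. A fit of only the genotypes compared was not run for the interaction and the array sets, which need all 4.

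Over the alternatives run by gene, 18 of 34 matrix genes kept 1 sign between the 2-allele genotypes, 5 between the 1-allele genotypes, 9 in the interaction and 19 between the array sets, where 17 of the 22 called did. Among matrix genes named by the rule the cases were these. With a gene's probe sets averaged, single-Stat5b minus single-Stat5a was 0.26 for Fn1 and 0.0856 for Timp2, and 1-allele minus 2-allele was 0.53 for Dcn, -0.49 for Eln, -0.25 for Hspg2 and -1.84 for Timp2. With array weights Fn1 was 0.0544 and Hspg2 0.10 between the 1-allele genotypes. With arrays left out, Fn1 ran from -0.29 to 0.0623, Hspg2 from -0.65 to 0.0316 and Loxl1 from -0.58 to 0.10 there. Between the array sets Timp2 was -0.19 with muscle and B cell covariates, -0.14 with the fibroblast covariate and -0.0184 without the 4 arrays. Nid1 was -0.0833 with centring, -0.047 with the fibroblast covariate, -0.10 with the 3' minus 5' covariate, -0.0093 without the 4 arrays and -0.0445 to 0.0741 with arrays left out. Of the called genes outside the rule, Col5a1 between the array sets was -0.0658 with probe sets averaged and Timp1 0.0181 with the 3' minus 5' covariate. Between the 2-allele genotypes, scaling turned the matrix genes' median from -0.0259 (19 of 34 below 0) to 0.0009 with quantile normalization (17) and 0.0194 with centring (16).

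No paired analysis was made, because each array came from a different mouse and the labels pair no mice. The labels give no replicate numbers either, and the numbers used here follow record order.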
